A study of Mus musculus with 10 samples.

Results

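The kallikrein-related peptidases are secreted serine proteases that are made as inactive zymogens and whose genes stand side by side in a single cluster. Neuropsin, encoded by Klk8, is the member best known from limbic brain, where it cleaves matrix and cell-surface proteins around synapses. Klk6 (neurosin) is known from oligodendrocytes, and Klk5, Klk7, Klk8 and Klk14 from the proteolytic cascade of the epidermis. Described here are the 10 genes Klk5, Klk6, Klk7, Klk8, Klk9, Klk10, Klk11, Klk13, Klk14 and Klk15 in the amygdala of wild-type and neuropsin-knockout mice. They were taken by gene name: every probe set whose platform annotation gives exactly 1 gene symbol, and that symbol is one of the 10, was taken. This gave 77 probe sets of 10 genes, among 318760 probe sets of 22103 genes in all, and between 3 (Klk13) and 12 (Klk9) probe sets per gene. In the reference gene table (GRCm38.p6) the members stand on chromosome 7 in the order Klk14, Klk13, Klk11, Klk10, Klk9, Klk8, Klk7, Klk6, Klk5 and Klk15, with Klk12 between Klk13 and Klk11 and Klk4 between Klk5 and Klk15.

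The wild-type group was C57BL/6 and the knockout group was neuropsin-/-, backcrossed to C57BL/6 for 12 generations. All mice were 3 months old, and the labels name no treatment. The amygdala was dissected, and its RNA was depleted of ribosomal RNA. Each genotype was measured on 5 exon arrays from 15 animals, read as a pool of 3 animals on each array, so that p-values measure the spread between pools. The labels do not say which exons of Klk8 the allele removes, and the place of a probe set within its gene was not used here.

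The windows of the targeted gene and of Klk11, the member whose gene level differed with the smallest p, are shown as RefSeq gives them on GRCm38.p6, from 250 bases before to 50 bases after an annotated transcript start. Both lie on the plus strand, Klk8 at chr7:43797327-43797626 and Klk11, at the first of its 2 annotated starts, at chr7:43774367-43774666. Capitals mark the GC-box letters GGGCGG. The TATA-box letters TATAAA were searched too, both motifs on both strands and without overlap between them.
Klk8: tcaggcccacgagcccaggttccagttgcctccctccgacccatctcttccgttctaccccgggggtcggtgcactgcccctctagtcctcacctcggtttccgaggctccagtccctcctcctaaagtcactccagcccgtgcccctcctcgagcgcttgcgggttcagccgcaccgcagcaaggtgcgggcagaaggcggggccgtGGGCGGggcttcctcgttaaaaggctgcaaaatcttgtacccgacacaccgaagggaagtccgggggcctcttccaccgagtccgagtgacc
Klk11: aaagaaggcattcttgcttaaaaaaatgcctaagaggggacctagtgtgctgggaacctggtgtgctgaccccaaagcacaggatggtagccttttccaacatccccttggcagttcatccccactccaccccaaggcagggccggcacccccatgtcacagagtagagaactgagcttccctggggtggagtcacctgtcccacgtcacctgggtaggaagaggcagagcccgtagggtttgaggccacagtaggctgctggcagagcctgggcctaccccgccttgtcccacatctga
The Klk8 window holds 1 GC box, whose first base lies 42 bases before the start, and the Klk11 window holds none. GGGCGG was found in 5 of the 12 windows of the 10 genes (35.7% of all 32851 windows) and TATAAA in 1, that of Klk15 (13.6% of all). These are matches of letters and were not tied to the array values.

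Most kallikrein probe sets lay near the background of the arrays. As a description of that background, the 2804 probe sets of olfactory receptor genes, which are mostly silent in brain, had a median of 3.27 and a 95th percentile of 6.10 on the log2 scale of the deposited values. Of the 77 kallikrein probe sets 19 lay above 6.10 (24.7%, against 59.9% of all named probe sets). Above 4.94, the middle of the whole array with unnamed probe sets included, lay 41 (53.2%, against 76.4% of all named probe sets). The median kallikrein probe set was at 5.00, and the median named probe set at 6.70. Probes differ in how well they bind, so a level does not rank one gene against another, and a probe set near background can hide a change.

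The 77 probe sets differed widely within each gene. Klk6 had 5 of its 11 probe sets above the olfactory receptor line, at 6.27 to 7.16, and Klk8 had 2 of 9, at 6.77 and 7.14. In Klk9 and Klk10 it was 3 of 12 and 3 of 9, and in Klk15 2 of 6. Klk7, Klk11, Klk13 and Klk14 each had 1. None of the 8 probe sets of Klk5 reached the line, and its highest was at 5.10. In Klk10, Klk11, Klk14 and Klk15 a single probe set stood high above the rest of its gene: 5320968 of Klk10 at 8.76, 5569739 of Klk11 at 8.58, 4339559 of Klk14 at 9.34 and 4601053 of Klk15 at 9.31. The other probe sets of these 4 genes lay between 2.52 and 7.73. The gene level used below is the mean of all probe sets of a gene and therefore averages such unequal parts.

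**Figure D1:**
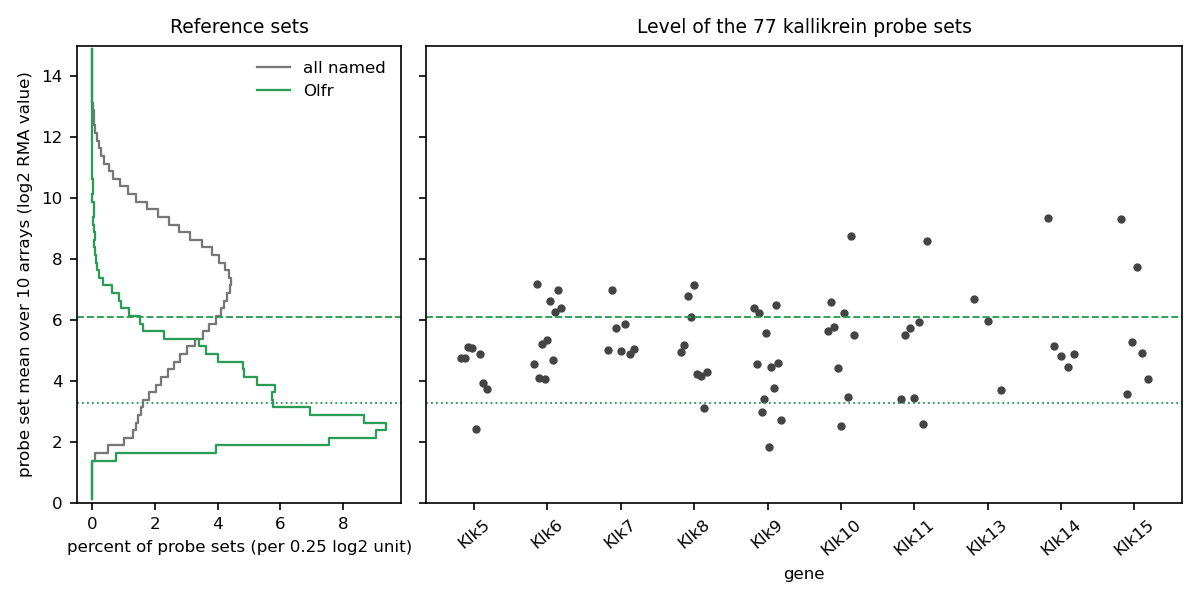
Level of each of the 77 kallikrein probe sets (right, points; mean log2 value over the 10 arrays) beside the distribution of all named probe sets and of olfactory receptor (Olfr) probe sets (left, percent of probe sets per bin); the dotted and dashed lines are the Olfr median, 3.27, and 95th percentile, 6.10. A total of 19 points lie above the dashed line, and 4 genes have a single point above 8.

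Markers of the tissue and of its neighbours were checked on the same arrays, as gene levels on the log2 scale. All differences here and below are knockout minus wild type from limma, and a gene passed at an adjusted p of 0.05. Neuronal genes averaged 10.01 to 10.19 over 5 of 6 genes measured, with Slc17a7 differing by 0.24 (SE 0.09) and Gad2 by -0.18 (SE 0.12). The 10 amygdala genes averaged 7.75 to 8.09, with Cck differing by 0.21 (SE 0.07) and Dlk1 by -0.23 (SE 0.09). But Crh, singled out after its values were seen, averaged 5.23 and 5.21 in the genotypes, below the olfactory receptor line of 6.10. The line was drawn from single probe sets, so an average over several is not directly comparable with it. Keratinised epithelium, another home of these proteases, averaged 5.24 to 5.39 on wild-type and 5.26 to 5.35 on knockout arrays over 9 genes, 6 of them with a difference below 0. Those averages lay below the same line, with the same limit. In this list Sbsn differed by 0.36 (SE 0.10) and Krt10 by -0.27 (SE 0.09). Krt10 averaged 6.45 and 6.17 in the genotypes, above the line. Choroid plexus and meningeal genes averaged 6.61 to 7.57 and 6.31 to 7.54 over 6 genes, 4 of them with a difference below 0. Slc6a13 differed by -0.19 (SE 0.11), Dcn by 0.17 (SE 0.12), Folr1 by -0.23 (SE 0.19) and Ttr by -1.05 (SE 0.88). Ttr varied widely between arrays, from 8.74 to 11.83 in the wild type and from 7.26 to 11.92 in the knockout. All 8 hypothalamic genes had a difference below 0, and 0 passed the test. Before adjustment 5 of the 8 had a limma p under 0.05, against 6.46% of all genes. The mean of the 8 was 5.53 to 6.28 on wild-type arrays and 5.16 to 5.25 on knockout arrays, without overlap. With the same limit, the knockout means and the wild-type means of arrays 2 to 5 (5.53 to 5.76) lay below the line. Wild-type array 1 alone lay above it. Pmch differed by -1.43 (SE 0.35), with overlap. Oxt differed by -0.74 (SE 0.23), lower without overlap, as in 0.647% of all genes. No marker was at 0 on any array, which is no sign of detection, since the olfactory receptor median was 3.27. The part of these markers in the Klk8, Klk11 and Klk13 values was not tested.

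Klk8, the targeted gene, gave no detectable difference in its gene level between the genotypes, with an interval that leaves room for changes of either sign. Its gene level was 5.52, 5.07, 4.78, 5.23 and 5.26 on wild-type arrays 1 to 5 and 5.21, 4.60, 5.19, 4.86 and 5.25 on knockout arrays 1 to 5. The groups overlapped over most of their range, with the highest value on wild-type array 1 and the lowest on knockout array 2. The wild-type mean was 5.17 ± 0.27 and the knockout mean 5.02 ± 0.29 (SD, n = 5 each). The difference was -0.15 on the log2 scale (exact permutation test over the arrays, two-sided, p = 0.413), and in the limma fit over all genes its 95% interval ran from -0.49 to 0.19. Over the 5 probe sets above the array median it was -0.39 (exact permutation p = 0.0476), and over the 2 above the 75th percentile it was 0.11 (exact permutation p = 0.571), so that the size and the sign of the difference depended on which probe sets were averaged. A probe set outside the deleted part of a gene checks nothing of the genotype labels, and which of the 9 lie inside it is not known here.

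Within Klk8 the differences of the 9 probe sets ran from -1.03 to 0.64, and none passed the test. Probe set 4485756 read 5.57, 5.68, 5.48, 5.67 and 6.07 on the wild-type arrays and 5.07, 3.56, 4.85, 5.38 and 4.49 on the knockout arrays. All knockout values lay below all wild-type values, and the knockout arrays spread more (SD 0.70 against 0.23). The mean of this probe set over the 10 arrays, 5.18, lay below the olfactory receptor line of 6.10. Probe set 4837809 read 6.04, 6.49, 6.22, 6.52 and 6.71 on the wild-type arrays and 5.20, 6.12, 5.28, 6.19 and 6.08 on the knockout arrays, of which arrays 2, 4 and 5 reached the wild-type range. The mean of 4837809 was 6.09, just under the same line. Probe set 5496921, near background, read 4.14 to 4.83 and 3.78 to 4.26, and knockout array 5 alone overlapped. The brightest probe set of the gene, 4911697, lay at 6.87 to 7.48 on wild-type arrays against 6.76 to 7.34 on knockout arrays, with an interval of the difference from -0.45 to 0.38. The next brightest, 4766956, lay at 6.01 to 7.32 and 6.51 to 7.41, a difference of 0.25 with an interval from -0.36 to 0.86. Probe sets 5524356 and 5578007, whose lowest values were the lowest of the gene, differed by 0.64 and 0.55 (0.35 to 0.99 and 0.17 to 0.87 with 1 array left out), and both read highest on wild-type array 1 and knockout array 1. Their values on wild-type array 1 were 4.20 and 5.27, against 2.25 to 2.82 and 2.50 to 4.31 on the other wild-type arrays. Probe set 5524356 read 4.55, 2.52, 3.22, 2.74 and 4.04 on the knockout arrays, and probe set 5578007 read 5.37, 3.40, 4.62, 4.42 and 5.00. The remaining 2 probe sets, 4310685 and 4965873, were also near background and differed by -0.49 and -0.20, with wide overlap (-0.80 to -0.13 and -0.41 to 0.19 with 1 array left out).

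**Figure D2:**
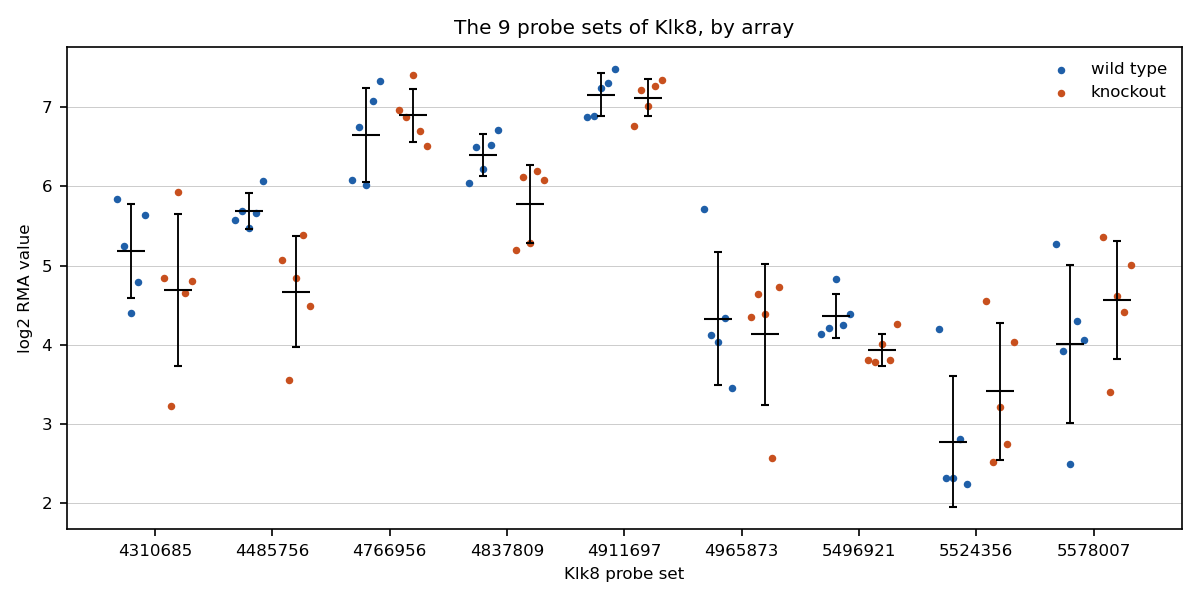
Log2 value of each of the 9 Klk8 probe sets on the 5 wild-type and 5 knockout arrays (points, in array order from left to right), with the group mean and SD (bars). In probe set 4485756 all knockout points lie below all wild-type points, while in 4911697, the brightest, the groups overlap.

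None of the 9 Klk8 probe sets passed the test over all 1236087 probe sets. The limma difference was -1.03 (SE 0.30, adjusted p = 0.890) for 4485756, -0.62 (SE 0.25, adjusted p = 0.903) for 4837809 and -0.43 (SE 0.19, adjusted p = 0.915) for 5496921. These 3 of 9 had limma p-values under 0.05 before adjustment, where 5.45% of all probe sets did, 2.64% of all being lower in the knockout. Relative to the mean of the other 8 probe sets of the gene, 4485756 differed by -0.98 (SE 0.30, limma adjusted p = 0.960 over 317869 probe sets). Probe set 5524356 differed by 0.89 relative to its gene (SE 0.40, limma adjusted p = 0.960).

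No member gene passed the test. In the limma fit over 22103 genes 0 of the 10 members passed an adjusted p of 0.05, where 0.00905% of all genes did (2 genes, both lower in the knockout, and 0 with the array number as a block). Before adjustment 2 of the 10, Klk11 and Klk13, had a limma p under 0.05, against 6.46% of all genes. Both were lower in the knockout (3.77% of all genes), and none was higher (2.69%). With the array number as a block Klk11 alone had a limma p under 0.05. The difference was below 0 in 7 members and above 0 in 3, with a median of -0.08. Over all genes 11248 of 22103 lay below 0, and the median was 0.00. The ranges of the genotypes overlapped in 10 of 10 members, where 1.4% of all genes did not overlap.

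Klk11, a trypsin-like kallikrein also named hippostasin, had the smallest p of the family. Its gene level was 5.40, 5.17, 5.05, 5.09 and 5.28 on the wild-type arrays and 5.09, 4.54, 4.94, 4.88 and 4.77 on the knockout arrays. Knockout array 1 alone reached into the wild-type range. The wild-type mean was 5.20 ± 0.14 and the knockout mean 4.84 ± 0.20 (SD, n = 5 each). The log2 difference was -0.35 with an SE of 0.11 and a 95% interval from -0.59 to -0.12 (limma adjusted p = 0.699 over all genes). All 7 of its probe sets had a difference below 0, from -0.87 to -0.06. The largest was in probe set 5382657, at 3.65, 2.45, 2.55, 3.87 and 2.62 on the wild-type arrays against 2.40, 2.10, 2.07, 2.03 and 2.17 on the knockout arrays (limma adjusted p = 0.892). The groups did not overlap there, by a margin of 2.40 against 2.45, and all these values lay within the olfactory receptor background. The bright probe set 5569739 read 8.45 to 9.09 against 8.18 to 8.67, a difference of -0.28 (SE 0.19).

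Klk13 rested on 3 probe sets. Its gene level was 5.92, 5.35, 5.49, 5.57 and 5.65 on the wild-type arrays and 4.96, 5.47, 5.09, 5.57 and 5.30 on the knockout arrays, where arrays 2 and 4 lay inside the wild-type range. The log2 difference was -0.32 with an SE of 0.13 (limma adjusted p = 0.752). Most of it came from probe set 4974184, at -0.65 (SE 0.32), and the other 2 differed by -0.12 and -0.19. Probe set 4974184 averaged 5.96 over the 10 arrays, just below the olfactory receptor line of 6.10.

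The epidermal kallikreins Klk5, Klk7 and Klk14 gave differences of either sign. Klk7, a chymotrypsin-like enzyme of the skin, had a gene level of 5.04 to 5.58 on wild-type and 5.30 to 5.74 on knockout arrays, a difference of 0.16 with a 95% interval from -0.11 to 0.42. Its probe set 5316744 read 4.78, 5.04, 4.44, 4.46 and 5.01 on the wild-type arrays and 5.45, 5.67, 5.04, 5.34 and 5.13 on the knockout arrays. Every knockout array was above every wild-type array, though the nearest pair both read 5.04 after rounding (limma difference 0.58, SE 0.20, adjusted p = 0.894). The mean of this probe set over the 10 arrays, 5.04, lay below the olfactory receptor line of 6.10. Klk5, a trypsin-like enzyme of the same cascade, was at 4.04 to 4.39 and 4.12 to 4.61, a difference of 0.14 (interval from -0.10 to 0.37) that turned to -0.33 over its 2 probe sets above the array median. Of its 8 probe sets 5 had a difference below 0 and 3 above, with a median of -0.08 and a range from -0.42 (4723047) to 0.80 (5197225), the last with knockout arrays 1 and 3 at 3.75 and 3.97 and the other 8 arrays at 1.69 to 2.41. Klk14 was at 5.46 to 6.18 and 5.55 to 6.02, a difference of -0.09 (interval from -0.39 to 0.21), and its bright probe set 4339559 differed by 0.08 (SE 0.17).

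The gene level of Klk6 was 5.46 to 5.79 on wild-type and 5.33 to 5.73 on knockout arrays, a difference of 0.01 with the narrowest interval of the family, from -0.20 to 0.21. Klk9 was at 4.18 to 4.61 and 4.21 to 4.65, a difference of -0.01 (interval from -0.24 to 0.22), and Klk10 at 5.17 to 5.57 and 5.02 to 5.65, a difference of -0.07 (interval from -0.35 to 0.21). Klk15 was at 5.59 to 6.30 and 5.42 to 6.17, a difference of -0.16 (interval from -0.49 to 0.17) that was -0.51 over its probe sets above the array median (limma adjusted p = 0.660). In Klk15 the probe set 4687909 read 6.29, 5.29, 6.00, 5.66 and 5.36 on the wild-type arrays and 4.97, 4.66, 3.97, 5.81 and 4.78 on the knockout arrays, a difference of -0.88 (SE 0.31, limma adjusted p = 0.895). Knockout array 4 lay inside the wild-type range and the other 4 knockout arrays below it. This probe set averaged 5.28 over the 10 arrays, below the olfactory receptor line of 6.10. The brightest Klk15 probe set, 4601053, read 9.07 to 10.07 and 8.92 to 9.31, a difference of -0.39 (SE 0.20). Probe set differences ran from -0.52 to 0.73 in Klk9 and from -0.29 to 0.16 in Klk10.

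**Figure D3:**
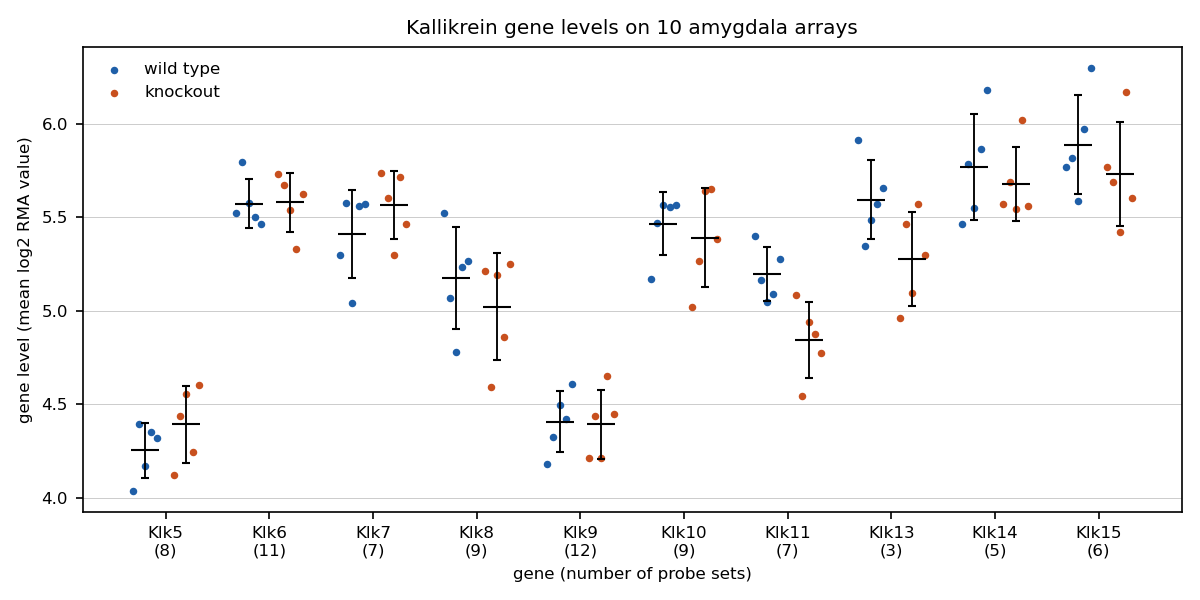
Gene level (mean log2 value over a gene's probe sets, whose number is in brackets) of the 10 kallikreins on each wild-type and knockout array (points, in array order from left to right), with the group mean and SD (bars). The ranges overlap in every gene, and Klk11 comes closest to separating, with knockout array 1 at 5.09 reaching the wild-type range.

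Single probe sets gave no call either. In the limma fit 0 of the 77 kallikrein probe sets passed, where 0.000162% of all probe sets did (2 of 1236087, and 0 with the array number as a block). Before adjustment 8 of the 77 had a p under 0.05, against 5.45% of all probe sets: 5 were lower in the knockout (2.64% of all) and 3 higher (2.8%). The genotypes did not overlap in 3 of the 77, against 0.965% of all probe sets. Lower were 4485756 of Klk8 and 5382657 of Klk11 (0.412% of all), and higher was 5316744 of Klk7 (0.553%). The means of all 3 lay below the olfactory receptor line. In the test of relative use, in which each probe set is set against the mean of the rest of its gene, 0 of the 77 passed against 0.00315% of all (10 of 317869, of which the lower ones made up 0.00283%, and 0 with the block). Before adjustment 9 of the 77 had a limma p under 0.05 against 5.12%, 4 lower (2.48% of all) and 5 higher (2.65%). Of these 9, Klk9 held 3, Klk7 and Klk8 2 each, and Klk5 and Klk15 1 each. Over the 77 probe sets 49 differences lay below 0 and 28 above, with a median of -0.10. Over all named probe sets 150064 of 318760 lay below 0, with a median of 0.02. The 77 probe sets share the arrays.

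**Figure D4:**
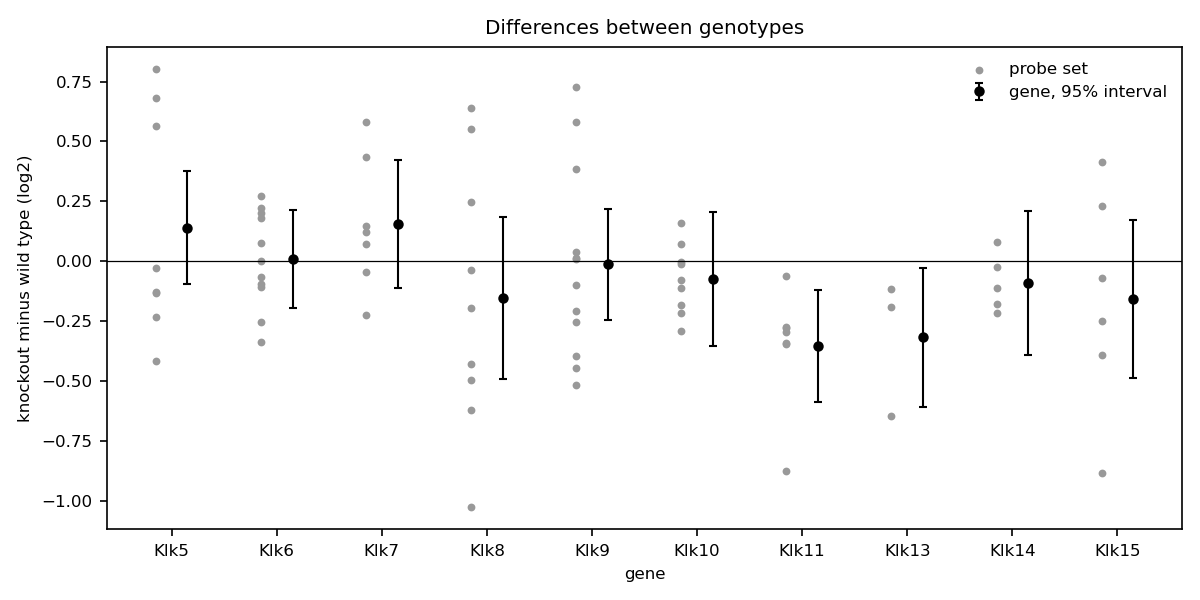
Log2 difference, knockout minus wild type, of each probe set (grey) and of each gene level with its 95% interval from the limma fit (black). All 7 Klk11 and all 3 Klk13 probe sets lie below 0, while those of Klk8 run from -1.03 to 0.64.

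Array number and Klk6 were also set side by side. Over all genes, arrays with the same number deviated together weakly in the 2 genotypes (r = 0.10 to 0.26). Of the 5 wild-type arrays 4 were closest to the knockout array of their own number. Wild-type array 5 was closer to knockout array 4 (r = 0.24) than to knockout array 5 (r = 0.10). Along the leading component of a principal component analysis of genes, wild-type arrays 4 and 5 stood apart at 22.8 and 27.2. Knockout array 4 followed at 10.3, and the other 7 arrays lay between -18.8 and 3.53. The 2 bright Klk6 probe sets were picked after their values were seen as the extremes, among its probe sets above the olfactory receptor line, of the mean of arrays 4 and 5 minus that of arrays 1 to 3. This contrast was -1.09 and 0.65 in these 2, and -0.12, -0.0050 and 0.12 in the other 3. In the Klk6 probe sets below the line it ran from -0.88 to 0.29. Probe set 4742999 read 7.42, 7.38 and 7.32 on wild-type arrays 1 to 3 and 6.12 and 5.74 on arrays 4 and 5, and on the knockout arrays 7.08, 6.58 and 6.63 on arrays 1 to 3 and 5.95 and 6.08 on arrays 4 and 5. Probe set 4476447 ran the other way, at 6.72, 7.21 and 6.92 against 7.92 and 7.69 on wild-type arrays and 6.87, 7.02 and 6.70 against 7.34 and 7.26 on knockout arrays. Arrays 4 and 5 of both genotypes were the lowest in the first and the highest in the second, a separation that the way of picking favours.

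The oligodendrocyte marker list was read on the same arrays. Of its 14 genes 12 were measured, all 12 had a difference below 0 and 0 passed the test, with Fa2h at -0.33 (SE 0.14), Cldn11 at -0.28 (SE 0.12) and Trf at -0.44 (SE 0.20). Their mean was 8.51, 8.51, 8.25, 7.96 and 7.59 on the wild-type arrays and 8.07, 7.94, 7.93, 7.63 and 7.96 on the knockout arrays. Arrays 4 and 5 were the lowest of the wild-type group and array 4 the lowest of the knockout group, while knockout array 5, low in probe set 4742999, was not low in the markers. The part of oligodendrocyte content in the Klk6 values was not tested, and in dissected tissue fewer cells of a type cannot be told apart from less RNA per cell.

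**Figure D5:**
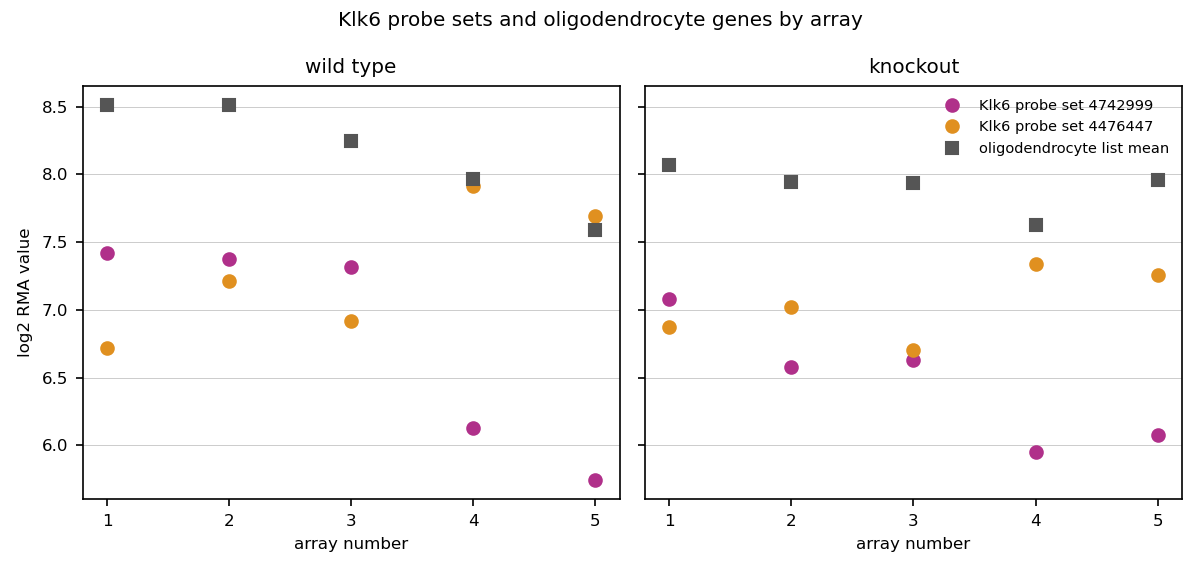
Log2 value of Klk6 probe sets 4742999 and 4476447 and the mean of 12 oligodendrocyte genes on arrays 1 to 5 of each genotype. Probe set 4742999 lies at 5.74 to 6.12 on arrays 4 and 5, on which 4476447 is at 7.26 to 7.92.

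Klk14 and Klk15 gave the closest pair of profiles in the family. With each genotype centred on its mean, their gene levels correlated at r = 0.90 over the 10 arrays, those of Klk7 and Klk15 and those of Klk8 and Klk11 at r = 0.77, and those of Klk9 and Klk14 at r = 0.76. These are the 4 highest of 45 pairs, picked after their values were seen. Klk14 and Klk15 were both highest on wild-type array 5 (6.18 and 6.30) and knockout array 4 (6.02 and 6.17). The points share the array. Among 11051 genes above the median gene level, the profiles most like Klk8 were Slc25a47 (r = 0.90), Acot6 (0.89) and Trhr2 (0.85), and those most like Klk6 were Dlx6 (0.96), Raly (0.93) and Iah1 (0.93), as a description over 10 arrays.

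The other kallikreins of the list, most of them glandular kallikreins of the Klk1 group, gave no call either. Of 17 genes 15 were measured, 4 with a difference above 0 and 11 below, 0 passed, and the median difference was -0.09. Klk1b8, near background, had a gene level of 2.93 ± 0.12 on the wild-type arrays and 3.32 ± 0.16 on the knockout arrays (SD, n = 5 each). Its groups did not overlap, higher in the knockout, as in 0.751% of all genes (0.647% were lower without overlap), and the difference was 0.39 (SE 0.09, limma adjusted p = 0.595). Klk1, tissue kallikrein, differed by -0.25 (SE 0.15), Klk1b24 by -0.16 (SE 0.12) and Klk1b9 by 0.18 (SE 0.15). Whether probes of one glandular kallikrein also read its near copies was not tested. Klk12 and Klk4, named after their values were seen because they stand between members, differed by -0.04 (SE 0.11) and -0.09 (SE 0.12).

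Of 19 serine protease inhibitors, all measured, 7 had a difference above 0 and 12 below, 0 passed, and the median was -0.03. Spink8, a Kazal-type inhibitor, was at 4.51 ± 0.17 on the wild-type and 4.89 ± 0.16 on the knockout arrays (SD, n = 5 each). Both means lay below the olfactory receptor line of 6.10, which was drawn from single probe sets. The groups did not overlap, higher in the knockout as in 0.751% of all genes, with a difference of 0.38 (SE 0.10, limma adjusted p = 0.638). A2m, a broad protease trap, differed by -0.37 (SE 0.19) and Spink5, an epidermal inhibitor of kallikreins, by -0.14 (SE 0.07). Of 12 substrates and protease-activated receptors 11 were measured, 6 with a difference above 0 and 5 below, 0 passed, and the median was 0.02. L1cam, a neural adhesion molecule, differed by 0.17, also without overlap and higher (0.751% of all genes; SE 0.07, limma adjusted p = 0.752), and the matrix protein Fn1 by 0.18 (SE 0.09). The thrombin receptor F2r differed by -0.19 (SE 0.11) and the related receptor F2rl2 by -0.19 (SE 0.10).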

How the data were processed

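Amygdala RNA was measured on Affymetrix mouse exon arrays. The authors deposited a log2 value for every probe set (about 1 exon) on every array. They used RMA in Affymetrix Expression Console, per the submitters' processing notes: background correction, quantile normalization and a summary over a probe set's probes. The versions and build behind these values were not named in the labels. Of 1256831 probe sets 20744 were at 0 on every array and were left out, 318760 had exactly 1 gene symbol, 6684 had several and 931387 were unnamed here. Of 22296 symbols 18006 were current in the GRCm38.p6 gene table, 4227 were updated through a synonym of 1 gene and 63 were kept. No member was named through a synonym.

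The gene level was the mean of all probe sets of a gene, with no filter on low values, because the members include probe sets near background. Genes, probe sets and relative use (a probe set minus the mean of the rest of its gene) were tested with limma 3.58.1 in R 4.3.3 (lmFit, eBayes, no covariates) over the whole table. Tests were two-sided with Benjamini-Hochberg adjustment and a threshold of 0.05. The scripts were tested on simulated data. Precision is limited by 5 arrays per genotype, whose medians over all probe sets, those at 0 included, lay between 4.95 and 5.03. No 2 arrays shared more than 0.0358% of values.

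The members and lists were chosen with earlier results of these data known. Named genes are every member, the 2 to 4 measured genes of smallest p in each list, and the 3 genes whose levels correlated most with Klk8 and with Klk6. Exceptions chosen after their values were seen are named as such. The labels number the arrays 1 to 5 in both genotypes without saying what a number stands for. Same-numbered arrays deviated together over genes (r = 0.10 to 0.26 in 5 of 5 pairs, against -0.23 to 0.24 for other pairs), so the number was used as a block in an alternative fit. Other alternatives were repeated normalization, filters, gene summaries, array weights, another variance prior, diffSplice, a threshold of 0.1, and arrays left out.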

Additional observations from a re-analysis of the deposited data

Results flagged for a closer look

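In 5 cases 1 array stood far from the other 4 of its genotype, its gap to the nearest exceeding 0.71 of the group's range. Of 20 groups of gene levels 1 was concerned, Klk10 with wild-type array 1 at 5.17 and the next at 5.47. Of 154 groups of probe set values 4 were concerned, or 2.60%, where chance gives about 1 group in 20. In Klk7 wild-type array 3 read 3.94 in probe set 4403329 (nearest 4.86) and wild-type array 5 read 6.31 in 5173873 (nearest 5.94). In Klk8 knockout array 4 read 2.57 in probe set 4965873 (nearest 4.35). In Klk11 knockout array 1 read 6.32 in probe set 4896839 (nearest 5.20).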

How the results depend on the processing

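In no alternative did a member gene or a member probe set pass the limma tests, and the smallest adjusted p of any member was 0.469 in the gene test, 0.742 in the probe set test and 0.553 for relative use. Over all features the calls moved from 2 to between 0 and 5 genes, from 2 to between 0 and 89 probe sets (89 with the trended and robust prior, 66 and 15 above the 75th percentile and the median) and from 10 to between 0 and 745 for relative use (745 with diffSplice). With the replicate number as a block 0 features of each kind passed, and Klk8 differed by -0.15 (exact paired permutation p = 0.438, smallest possible 0.0625). The Klk8 mean was -0.39 over probe sets above the median, which passed the exact test, and 0.11 over those above the 75th percentile, the opposite sign. The median over probe sets gave -0.61 and median polish -0.06, and leaving out 1 array gave -0.25 to -0.04. Members that had not passed changed sign as follows. Above the array median Klk5 was at -0.33, Klk6 at -0.086 and Klk9 at 0.050. Above the 75th percentile Klk6 was at -0.23 and Klk14 at 0.078. Klk5 and Klk9 had no probe set there, and single probe sets below a filter gave no value under it. Klk9 was at 0.0015 with arrays centred, 0.029 with the median over probe sets and 0.027 with array weights. Klk6 was at -0.019 with median polish and -0.011 with array weights, and Klk14 at 0.0033 without arrays 4 and 5 of both genotypes. With 1 array left out the ranges were -0.030 to 0.071 for Klk6, -0.078 to 0.037 for Klk9, -0.15 to 0.019 for Klk10, -0.18 to 0.013 for Klk14, -0.41 to 0.19 for Klk8 probe set 4965873 and -0.11 to 0.053 for 4911697. The causes were not tested. Klk7, Klk11, Klk13 and Klk15 and the 3 probe sets without overlap kept their sign in every alternative run, but not their size. Klk15 was at -0.51 above the array median, and the median over probe sets gave 0.45 for Klk7 and -0.56 for Klk13. With 1 array left out Klk15 ran from -0.27 to -0.056 and Klk7 from 0.064 to 0.22. Klk8 probe set 4766956 ran from 0.089 to 0.81 over the alternatives, highest without arrays 4 and 5 of both genotypes.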
